A study of Saccharomyces cerevisiae with 6 samples.

Results

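The 80S fraction of a sucrose gradient was compared with its untranslated fraction for every RNA of a pool of yeast mRNA leaders, 6962 RNAs of the 6962 in the table, from 4134 genes. Members were all rows of the deposited table, and no measured value was used to choose them. The comparison used 5 of the 6 libraries of the study. Of these, 3 came from the 80S fraction, where both ribosomal subunits sit together on the RNA, and 2 from the fraction that the labels name untranslated. The remaining library was the input pool, whose levels are given for orientation. All groups shared the same RNAs, which T7 RNA polymerase had transcribed from a synthetic sequence set made from yeast sequencing, and which were then capped. All were handled in a translation extract of Saccharomyces cerevisiae, per the labels, so no living cell entered the comparison. Nothing in the labels says that replicates came from separate extracts, and p-values therefore cover the spread of these libraries alone, which may be a technical one.

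A ribosome of budding yeast usually reaches the start codon by scanning. The small subunit joins the capped 5′ end with the help of initiation factors, moves along the leader (the stretch upstream of the start codon, also called the 5′ untranslated region) and is joined by the large subunit at the start codon, which makes the 80S ribosome. Many yeast genes have several transcription start sites, so 1 gene can send out mRNAs whose leaders differ in length and share their 3′ part. RNAs here are named by gene and leader length in nucleotides (nt), the number that follows the locus tag in the table. Levels are FPKM, fragments per kilobase of RNA and scaled to the mapped reads of the library, so each is a share of its library. Changes are differences of mean log2(FPKM + 1), 80S minus untranslated, and an RNA is called higher or lower at a Benjamini-Hochberg adjusted p under 0.05 in limma. Library values are given in the order of replicate number.

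The leaders that open the contrast are those of genes whose RNAs were all on one side, and the stretch of each shortest leader just before its start codon is shown for some of them, with the start codon in capitals and with runs of 3 or more cytosines in capitals. All sequences are those of the RefSeq reference R64, given 5′ to 3′ in DNA letters for the strand that the RNA carries. The RNAs themselves were synthesised and could deviate from the reference. The first 5 come from genes with all RNAs higher in 80S and the last 5 from genes with all RNAs lower.
ERO1, 50 nt leader, chrXIII:13172-13198, minus strand: accacagtaacgtgcaggtaaaacATG
RTF1, 46 nt leader, chrVII:41474-41500, plus strand: taatttgttgagagcactatagaaATG
VAM7, 21 nt leader, chrVII:91411-91434, plus strand: aagggttgataattgatattgATG
HEM14, 36 nt leader, chrV:182576-182602, plus strand: agaacgccaaaaagagcttgtataATG
SKI8, 17 nt leader, chrVII:91245-91264, minus strand: aatcaagtattggaaaaATG
PRS4, 32 nt leader, chrII:92390-92416, plus strand: ctccacaaggcttctccagcaaaaATG
RTC2, 25 nt leader, chrII:536551-536577, plus strand: agcgagcatCCCtaaatttctgccATG
DEG1, 38 nt leader, chrVI:147107-147133, plus strand: ctgCCCtactataacctCCCttgaATG
SNM1, 18 nt leader, chrIV:1414557-1414577, plus strand: aacaaaaggatCCCaaaaATG
SPC3, 35 nt leader, chrXII:267145-267171, plus strand: gcattgccgcacttctccagaacaATG
None of the first 5 windows holds a run of 3 cytosines, and 3 of the last 5 do (RTC2, DEG1 and SNM1). The windows of PRY3, HMS2, MTR2, CDS1 and ISU1, low genes not shown, hold none. Those of PAN5, PEP8, HNM1, IFA38 and GBP2, high genes not shown, hold none either. The share among the 5 low windows shown is therefore higher than among all 10. These genes are described below by their values, and the cytosine content of all leaders after them.

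Most of the pool was divided unequally between the fractions, and the division was graded rather than confined to a few RNAs. Among all 6962, 2689 RNAs stood higher in 80S and 2215 lower, 38.6% and 31.8%, and 70.4% were called in all. The 3 libraries of the 80S fraction lay wholly above both libraries of the untranslated fraction for 3038 RNAs (43.6%) and wholly below them for 2498 (35.9%), 79.5% together. Only 9 of the called RNAs had overlapping fraction libraries. Among the 2058 RNAs without a call, 1429 (69.4%) had a 95% interval that stayed within 1 of 0 on the log2 scale, so their intervals did not reach a 2-fold difference. RNAs were called from these same libraries, so their shares of FPKM in the fractions follow from the calls. The higher RNAs made up 58.7% to 59.2% of the FPKM of each 80S library, against 22.3% and 22.9% in the untranslated libraries. The lower RNAs made up 16.5% to 16.6% in 80S, against 52.1% and 52.9% in untranslated. In the input, higher RNAs made up 38.6% of the FPKM and lower RNAs 33.3%, near their shares of all RNAs.

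The log2 change had a median of 0.18, and 0.03 with libraries rescaled by their median ratios, so values within about that shift of 0 depended on the scaling. It was 1.08 at the RNA ranked 25% from the top and -0.94 at 25% from the bottom, a gap of 4.07-fold. At 5% from the top and from the bottom it was 2.24 and -2.49, a gap of 26.6-fold, and at 1% it was 2.96 and -3.27. When the 6962 RNAs were divided by rank into 10 equal classes from the highest to the lowest, the number called in each was 696, 693, 694, 549, 57, 0, 174, 651, 694 and 696. The uncalled RNAs therefore lay almost wholly in the 4 classes around the middle. The order held only in part between single libraries. In all 6 pairings of an 80S with an untranslated library, 334 RNAs (48.0% of the 696 in the top class) were in the top 10%. In the bottom 10% in every pairing were 410 RNAs (58.9%). These pairings reuse the libraries that gave the ranking.

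**Figure D1:**
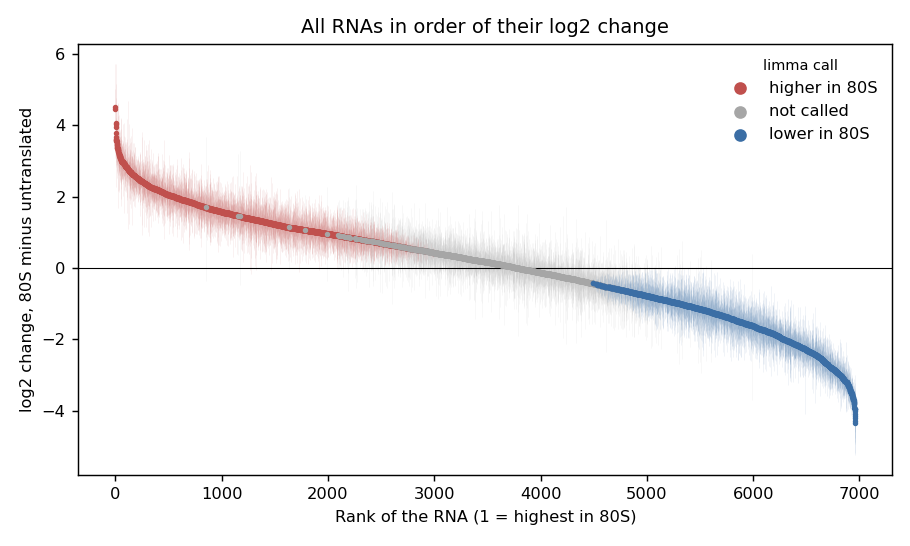
Log2 change (80S minus untranslated) of each RNA against its rank from the highest in 80S. Points are coloured by the limma call and the pale vertical lines span the 6 pairings of an 80S with an untranslated library; 2689 RNAs are higher, 2215 lower and 2058 not called, and the curve falls evenly from 1.08 to -0.94 across its middle.

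RNAs at fixed ranks show what these steps meant in FPKM. At 5% from the top stood BET5 with a 46 nt leader, from the gene of a subunit of the TRAPP complex that tethers vesicles at the Golgi, with 872, 952 and 1234 FPKM in the 80S libraries, against 199 and 225 FPKM in the untranslated libraries. At the same rank, RNY1 (60 nt), a vacuolar ribonuclease, had 3501, 3249.7 and 4689 FPKM in 80S and 1097 and 575 FPKM in untranslated. Both were 4.74-fold higher in 80S, and all 80S libraries exceeded both untranslated ones. At 10% from the top, the RNA of FRQ1 (77 nt), a calcium-binding activator of a lipid kinase, had 8454, 8731 and 8195 FPKM in 80S and 2266 and 2408 FPKM in untranslated, with little spread. SDH3 (27 nt), a subunit of succinate dehydrogenase, had the same change of 1.86 from more scattered levels, 1000.4, 832 and 1299 FPKM in 80S and 518 and 154 FPKM in untranslated. Its untranslated replicates stood far apart from each other. At 25% from the top, YMC2 (88 nt), a mitochondrial carrier, had 10672, 10389 and 9349.7 FPKM in 80S and 4223 and 5384 FPKM in untranslated. VPS16 (80 nt), a subunit of vacuolar tethering complexes, had 2024, 2002 and 1947 FPKM in 80S and 872 and 1009 FPKM in untranslated. Even at this rank the fraction libraries did not overlap.

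At the middle of the ranking the fractions could not be told apart. TRM11 (28 nt), a tRNA methyltransferase, had 5850.3, 5283 and 6239 FPKM in 80S and 5528 and 4731 FPKM in untranslated, and LAM1 (94 nt), a sterol transfer protein, had 4753, 5189 and 5706 FPKM in 80S and 5173 and 4100.0 FPKM in untranslated. For both, the range of the 80S libraries overlapped that of the untranslated ones (log2 0.18 each). In the lower part, MCH1 (78 nt), a membrane protein of the monocarboxylate transporter family, stood at 25% from the bottom with 859, 936 and 893 FPKM in 80S and 1328 and 2217 FPKM in untranslated. CIR2 (59 nt) was its neighbour with 1998, 869 and 1214 FPKM in 80S and 2196 and 2753 FPKM in untranslated. At 10% from the bottom, ATG29 (41 nt), a protein of autophagosome formation, had 3891, 3247 and 4553 FPKM in 80S and 15814 and 14352 FPKM in untranslated. PRS3 (100 nt), a phosphoribosyl pyrophosphate synthetase, had 680.1, 689 and 745 FPKM in 80S and 3242 and 2336 FPKM in untranslated there. These RNAs were 3.9-fold lower in 80S with fractions well apart. At 25% from the bottom, calls depended on single libraries: MCH1 lost its call without untranslated replicate 2 (-0.57), and CIR2 without 80S replicate 2 (-0.66), 80S replicate 3 (-0.90) or untranslated replicate 2 (-0.78). At 5% from the bottom, GLG2 (85 nt), a glycogenin that primes glycogen synthesis, had 747, 712 and 1038 FPKM in 80S and 5328 and 3982 FPKM in untranslated. The cell wall protein SCW4 (95 nt) had 1052, 1159 and 1066 FPKM in 80S and 5284 and 7125 FPKM in untranslated, 5.62-fold lower.

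The 12 RNAs ranked 9 to 20 from the top had log2 changes between 3.37 and 3.58. They came from genes of unlike function: STU2 (58 nt), a microtubule polymerase, EMP47 (42 nt), a cargo receptor between the endoplasmic reticulum and the Golgi, STL1 (28 nt), a glycerol importer, LSB3 (25 nt), a protein of actin patches, OMA1 (22 nt), a mitochondrial protease, SVF1 (62 nt), ICT1 (46 nt), a lysophospholipid acyltransferase, and BET5 with its longer 65 nt leader. YNL050C (19 nt), YDR415C (28 nt) and YNR048W, the last with both its 55 and its 67 nt leader, completed them. EMP47 was the most abundant of these, with 33020.3, 33884 and 39849.5 FPKM in the 80S libraries, against 3069 and 2876 FPKM in the untranslated libraries. Its libraries were 11.9-fold apart on average and the log2 change was 3.58 (SE 0.16, limma, adjusted p = 1.13e-05). SVF1 was the least abundant, with 1819, 1134 and 1225 FPKM in 80S and 143 and 111 FPKM in untranslated, and it was 10.7-fold higher.

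The 12 RNAs ranked 9 to 20 from the bottom had changes between -3.95 and -3.68. They were those of RPB9 (25 nt), a subunit of RNA polymerase II, HCR1 (49 nt), a protein that works with the initiation factor eIF3, CMP2 (65 nt), a catalytic subunit of calcineurin, ISU1 (91 nt), the scaffold on which iron-sulphur clusters are built, YDL241W (39 nt), SNU71 (42 nt), a protein of the U1 splicing particle, PEX6 (43 nt), an ATPase of peroxisomal protein import, OCA1 (33 nt), POA1 (83 nt), PRY3 (73 nt), a cell wall protein, TCM62 (54 nt), a chaperone of mitochondrial complex assembly, and ARO7 (32 nt), chorismate mutase. HCR1 had 649.7, 519 and 635 FPKM in the 80S libraries, against 9119 and 8944 FPKM in the untranslated libraries. RPB9 had 594, 359 and 432 FPKM in 80S and 6402 and 7627 FPKM in untranslated, and its change on the log2 scale was -3.95 (SE 0.25, limma, adjusted p = 1.30e-05). For each of these 24 RNAs, at both ends, the fraction libraries did not overlap and limma called the change in every fit that left out 1 library. The RNAs were picked by their change in these same libraries, which makes this likely, and 79.5% of all RNAs had no overlap.

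The most abundant called RNAs, ordered by mean FPKM over both fractions, had changes of very different size. Among the 6 most abundant higher RNAs, HEM14 (36 nt), protoporphyrinogen oxidase of heme synthesis, had 61262, 62334 and 70759.7 FPKM in the 80S libraries, against 6669 and 6528 FPKM in the untranslated libraries, 9.8-fold. RPN2 (33 nt), a subunit of the regulatory particle of the proteasome, had 49953, 50089 and 58453 FPKM in 80S and 10165 and 10528 FPKM in untranslated, and PET100 (31 nt), a cytochrome oxidase assembly factor, had 58505, 67088 and 59906 FPKM in 80S and 16533 and 23862 FPKM in untranslated. The other 3 were RPL2B (24 nt), a ribosomal protein, LPP1 (56 nt), a lipid phosphatase, and IRC22 (39 nt), which were 2.75-fold, 2.05-fold and 1.77-fold higher. Among the 6 most abundant lower RNAs, SNU71 (42 nt) had 5321, 4008 and 5806 FPKM in the 80S libraries, against 60548 and 76534 FPKM in the untranslated libraries, and YLR286W-A (112 nt) had 6286, 5602 and 5793 FPKM in 80S and 59032 and 58953 FPKM in untranslated. YHL006W-A (86 nt) had 4694, 4171 and 4911 FPKM in 80S and 157793 and 50898 FPKM in untranslated, so its untranslated replicates stood far apart while both exceeded every 80S library, with a change of -4.29. RRP3 (43 nt), an RNA helicase of ribosome assembly, was 3.36-fold lower. The smallest of these changes were those of QDR3 (78 nt), a drug transporter, at -0.51, and ECM27 (27 nt) at -0.45. The call of ECM27 was lost under quantile normalization and without the mean-variance trend. Both calls were also lost without 80S replicate 2, 80S replicate 3 or untranslated replicate 2, where QDR3 stood at -0.52, -0.43 and -0.38 and ECM27 at -0.38, -0.43 and -0.42.

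Genes with several leaders show how far a gene, and not only an RNA, lay with ribosomes. Of 2008 genes with 2 or more RNAs, 320 (15.9%) had every RNA called higher in 80S and 236 (11.8%) every RNA called lower, while 446 (22.2%) had RNAs called in both directions. A further 471 genes had higher and uncalled RNAs, 385 had lower and uncalled ones, and 150 had no call. RNAs of 1 gene resembled each other weakly: Spearman's rho between the changes of the shortest and the longest leader was 0.27 over the 2008 genes, which share libraries and sequence, and the median range within a gene was 1.39. In 1071 genes (53.3%) all RNAs had the same sign. Uniform calls were rarer with more leaders, where more RNAs had to pass, and whether such RNAs agreed less was not tested. Of 680 genes with 3 or more RNAs, 67 were all higher, 48 all lower and 250 called in both directions. Among the 119 genes with 4 or more RNAs, the counts were 6, 3 and 55. Large and uniform differences were rarer still, since all RNAs were 4-fold or more higher in 23 genes and 4-fold or more lower in 32.

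The 10 genes whose least changed RNA was still highest in 80S were ERO1, RTF1, PAN5, PEP8, HNM1, IFA38, VAM7, HEM14, GBP2 and SKI8, each with 2 RNAs. ERO1 makes the oxidase that drives disulphide bond formation in the endoplasmic reticulum. Its 50 nt leader had 4273, 3059 and 3596 FPKM in the 80S libraries, against 506 and 448 FPKM in the untranslated libraries. Its 97 nt leader had 9864, 9044 and 10606 FPKM in 80S and 1097 and 1526 FPKM in untranslated, and both RNAs were at 2.92. RTF1, a subunit of the Paf1 complex that travels with RNA polymerase II, had 21699, 20170.1 and 21719 FPKM in 80S and 3007 and 2696 FPKM in untranslated for its 46 nt leader. Its 75 nt leader had 15870.4, 14057 and 12718 FPKM in 80S and 1083 and 1140.2 FPKM in untranslated. The changes were 2.89 and 3.67 (SE 0.17, limma, adjusted p = 1.13e-05). PAN5, an enzyme of pantothenate synthesis, had less certain values. Its 43 nt leader had 2558, 1861 and 2630.3 FPKM in 80S and 802 and 173 FPKM in untranslated, a change of 2.64. Its 30 nt leader had 769 and 199 FPKM in untranslated and a change of 4.45 (SE 0.49). That change was 5.42 without untranslated replicate 1 and 3.47 without untranslated replicate 2. For both RNAs the untranslated replicates stood far apart.

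HNM1, the choline importer, had changes of 3.10 (31 nt) and 2.46 (83 nt). PEP8, a retromer subunit that returns receptors from endosomes, had 2.51 (22 nt) and 2.60 (48 nt). VAM7, a SNARE protein of vacuole fusion, had 2.43 (21 nt) and 2.60 (34 nt), and the 21 nt leader contains no cytosine at all. IFA38, the ketoreductase of very long chain fatty acid elongation, had 2.43 (29 nt) and 2.45 (53 nt). HEM14, in addition to its abundant 36 nt RNA, had 11176, 12496 and 10575 FPKM in 80S and 1882 and 2502 FPKM in untranslated with a 54 nt leader. GBP2, an RNA-binding protein that accompanies mRNA out of the nucleus, stood at 2.55 (28 nt) and 2.35 (44 nt), and SKI8, a subunit of an exosome cofactor, at 2.87 (17 nt) and 2.35 (36 nt). The fraction libraries of all 20 RNAs were separate, which the choice of these genes by their calls and changes made likely.

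The 10 genes at the other end, again with 2 RNAs each, were PRS4, PRY3, HMS2, RTC2, MTR2, CDS1, DEG1, SNM1, SPC3 and ISU1. PRS4 makes phosphoribosyl pyrophosphate, a precursor of nucleotides. With a 32 nt leader it had 628, 513 and 451 FPKM in the 80S libraries, against 4858 and 6084 FPKM in the untranslated libraries. With a 49 nt leader it had 450.1, 411 and 472 FPKM in 80S and 3160.5 and 4831 FPKM in untranslated, and the changes were -3.37 (SE 0.23, limma, adjusted p = 1.37e-05) and -3.14. CDS1 makes CDP-diacylglycerol, from which most phospholipids are built. Its 32 nt leader had 1672, 1189 and 1385 FPKM in 80S and 12276 and 13055 FPKM in untranslated and its 90 nt leader 684, 658 and 783 FPKM in 80S and 5756 and 4342 FPKM in untranslated. Both lay far below in every 80S library. MTR2, the partner of the mRNA export factor Mex67, had -2.84 (60 nt) and -3.28 (92 nt).

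The other 7 were of mixed function. Genes of RNA processing were DEG1, a pseudouridine synthase, at -2.68 (38 nt) and -3.05 (58 nt), and SNM1, a subunit of RNase MRP, at -3.49 (18 nt) and -2.62 (37 nt). SPC3, a signal peptidase subunit, had -3.16 (35 nt) and -2.59 (50 nt), and HMS2, a protein similar to heat shock transcription factors, had -2.88 (43 nt) and -3.19 (90 nt). RTC2, a vacuolar membrane protein, had -3.02 (25 nt) and -2.87 (113 nt), and PRY3 had -3.73 (73 nt) and -2.94 (88 nt). ISU1 had 2089, 1832 and 2473 FPKM in 80S and 14829.9 and 9893 FPKM in untranslated with its 64 nt leader and 2479, 2261 and 2192 FPKM in 80S and 27854 and 38067 FPKM in untranslated with its 91 nt leader. None of the 20 RNAs had an 80S library as high as an untranslated one, which the choice of these genes likewise made likely.

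**Figure D2:**
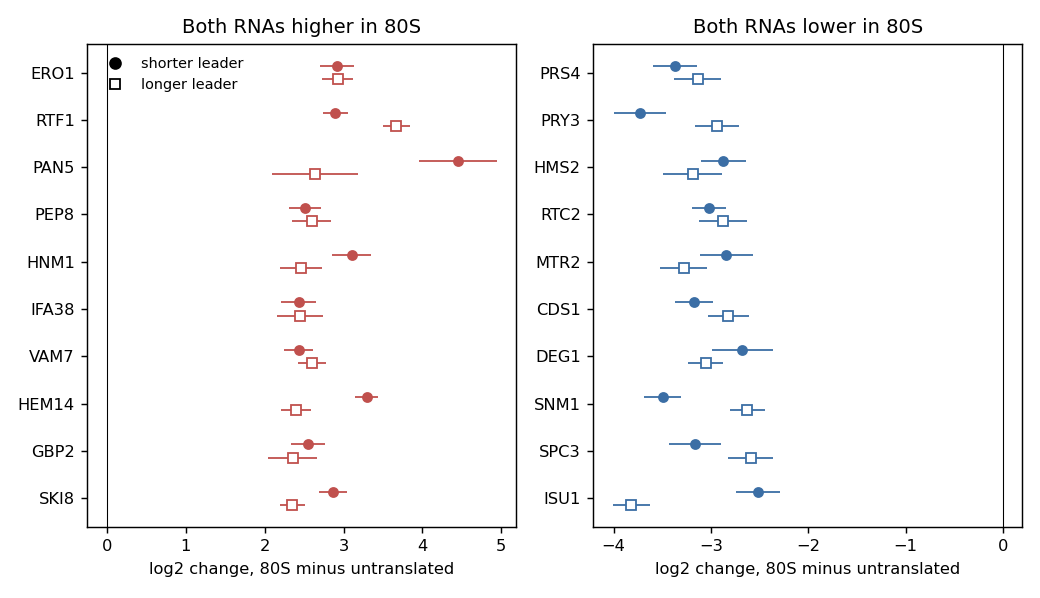
Log2 change (80S minus untranslated) of both RNAs of the 10 genes with the largest weakest change in each direction, as points with bars of 1 standard error from limma. Filled circles are the shorter and open squares the longer leader; every RNA on the left lies above 2 and every RNA on the right below -2.

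Where a gene had 4 or more leaders, uniform calls were few. STU2 had 4 RNAs, all higher, with changes of 2.33, 2.93, 3.58 and 1.61 at leaders of 19, 46, 58 and 86 nt. PET191, for cytochrome oxidase assembly, had 1.90, 1.15, 2.07 and 1.05 at 41, 64, 75 and 103 nt. PSO2, a nuclease that repairs DNA crosslinks, YEA4, a transporter of UDP-N-acetylglucosamine, and AAC3, an ADP/ATP carrier of mitochondria, were also all higher, with ranges of 1.08 to 2.03, 1.00 to 1.45 and 0.60 to 1.75. The lowest of these, AAC3 with 75 nt, lost its call under rescaling (0.45). It also lost it without 80S replicate 1 (0.50), 80S replicate 2 (0.59) or untranslated replicate 1 (0.49). All lower were ADE57 (2 enzymes of purine synthesis in 1 protein), from -2.12 at 102 nt to -0.62 at 65 nt, NRG2, a repressor of glucose-repressed genes, from -4.19 at 83 nt to -0.70 at 22 nt, and the phosphatase PHO13, from -3.20 at 37 nt to -1.41 at 15 nt. Some of these calls were less certain: ADE57 with 65 nt had no call without any single library except untranslated replicate 2, at values between -0.64 and -0.33, and NRG2 with 38 nt had none without 80S replicate 1 (-0.73) or untranslated replicate 1 (-0.63).

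Some genes with several leaders showed no call on any. PLB3, a phospholipase, had changes of 0.35, -0.06 and -0.30 at 21, 36 and 55 nt. AAT1, the mitochondrial aspartate aminotransferase, had 0.27, -0.04 and 0.34 at 63, 100 and 112 nt. THI20, a kinase of thiamine synthesis, had 4 RNAs between -0.31 and 0.20. LDB16, a protein of lipid droplets, and PAM18, a J-protein of the mitochondrial import motor, had largest changes of 0.18 and -0.34. For THI20 with 107 nt, the levels were 5653, 6882 and 4956 FPKM in 80S and 4166 and 6105 FPKM in untranslated, and the fractions overlapped. Calls appeared when 1 untranslated library was left out: without replicate 1 for PLB3 with 21 nt (0.73), AAT1 with 112 nt (0.52) and THI20 with 92 nt (-0.80), and without replicate 2 for PLB3 with 55 nt (-0.69) and PAM18 with 84 nt (-0.73) and 98 nt (-0.81).

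Gene lists by pathway or complex are described by their counts and medians, beside 38.6% higher, 31.8% lower and a median of 0.18 over all RNAs. Each of the 35 lists held RNAs called in both directions, and the list medians ran from 0.94 to -1.004. Coenzyme Q synthesis, which makes the lipid electron carrier of the respiratory chain, had the highest median: 12 of its 19 RNAs (63.2%) were higher and 2 (10.5%) lower. COQ2 (46 nt), which attaches the isoprenoid tail to the ring, led with 1619.7, 1667 and 1726 FPKM in the 80S libraries, against 203 and 194 FPKM in the untranslated libraries, 8.37-fold. COQ9 (52 nt) was lowest with 1182, 1335 and 954 FPKM in 80S and 5824 and 8675 FPKM in untranslated. The RNAs of COQ6 (93 nt), COQ4 (28 nt) and COQ1 (29 nt) stood at 2.07, 1.33 and 0.82, and the only other lower RNA was that of COQ8 (52 nt) at -1.25. With the shortest leader of each gene alone, the median over 12 RNAs was 1.18. Members other than the highest and lowest RNA of a list were picked for mention after their values were seen.

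Heme synthesis had 4 of 7 RNAs higher and 2 lower, with both HEM14 RNAs at the top, HEM2 (76 nt) at 1.65, and HEM15 (111 nt), ferrochelatase, lowest at -1.26. Among genes of protein folding, the chaperonin and prefoldin list, whose complexes fold actin and tubulin, had 14 of 26 RNAs higher and 6 lower, with a median of 0.67, and 0.34 with the shortest leader of each gene alone. CCT6 (22 nt) led with 5712, 3448 and 4926 FPKM in the 80S libraries, against 753 and 338 FPKM in the untranslated libraries, while CCT5 (36 nt) was lowest with 1401, 1436 and 1639 FPKM in 80S and 7252 and 7016 FPKM in untranslated. The same gene could appear at both ends, since CCT6 with 48 nt stood at -1.33 and CCT5 with 50 nt at 1.21. Of 42 N-glycosylation RNAs, 21 were higher and 9 lower, with a median of 0.65, which was 0.35 with the shortest leaders and 0.42 without untranslated replicate 2. MNS1 (28 nt), a mannosidase that trims glycans, had 8916, 7459 and 8887 FPKM in 80S and 1221 and 1235 FPKM in untranslated, and DPM1 (37 nt), which makes the mannose donor, had 698, 787 and 587 FPKM in 80S and 3389 and 3825 FPKM in untranslated. All 3 RNAs of MNS1 were higher and both of DPM1 lower, while OST5, a subunit of the oligosaccharyltransferase, was at 2.71 with 46 nt and -2.28 with 34 nt. Drug efflux genes had 12 of 22 higher and 6 lower, with QDR2 (19 nt), a multidrug transporter, highest at 2.81 and AZR1 (37 nt) lowest at -2.17.

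At the low end, the pentose phosphate pathway, which makes NADPH and ribose, had 6 of 12 RNAs lower and 4 higher, with a median of -1.004. TAL1 (41 nt), transaldolase, was lowest with 1133, 832 and 963 FPKM in the 80S libraries, against 5519 and 3840.5 FPKM in the untranslated libraries. ZWF1, the first enzyme of the pathway, lay on both sides, at 1.34 with 59 nt and -1.99 with 92 nt. All 3 RNAs of GND2 were higher, between 0.77 and 1.08, and both of SOL4 lower, at -1.93 and -2.17. The Mediator list, the complex that links activators with RNA polymerase II, divided evenly, 12 higher and 12 lower of 29, with a median of -0.47 but 0.77 with the shortest leader of each gene alone. NUT2 (26 nt) was highest with 6775, 6023 and 7184 FPKM in 80S and 832 and 894 FPKM in untranslated, and MED2 (38 nt) lowest with 792, 810.4 and 844 FPKM in 80S and 7073 and 8717 FPKM in untranslated. All 3 RNAs of MED2 were lower.

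Cleavage and polyadenylation had 9 RNAs higher and 14 lower of 33 (median -0.34), from RAT1 (58 nt), a nuclease of transcription termination, at 1.58 to CLP1 (35 nt) at -3.38. Another RAT1 RNA was lower at -2.90, and the other CLP1 RNA (14 nt) had no call at 0.06. TFIID and SAGA, coactivator complexes at promoters, had 7 higher and 12 lower of 29 (median -0.25). ADA2 (20 nt) was highest with 36316, 26660.3 and 41138 FPKM in the 80S libraries, against 4611 and 4156 FPKM in the untranslated libraries, and GCN5 (48 nt), the acetyltransferase of the same complex, lowest with 1276, 1085 and 1176 FPKM in 80S and 14118 and 13763 FPKM in untranslated. These 2 RNAs stood at opposite ends, 7.8-fold higher and 11.8-fold lower. The other ADA2 RNA (36 nt) had no call at -0.06, and the other GCN5 RNA (72 nt) was lower at -1.14. Nuclear transport receptors and Ran had 13 higher and 16 lower of 35, with medians of -0.29 over all its RNAs and 0.52 with the shortest leaders alone. All 3 RNAs of GSP1, the yeast Ran, were lower, at -1.83, -0.99 and -1.87, and all 3 of the mRNA exporter MEX67 were higher, between 0.82 and 0.93. Trehalose and glycogen had 8 higher and 9 lower of 24 (median -0.34, and 0.20 with the shortest leaders), with GLG2 as both a top and a low RNA, at 2.11 with 46 nt and -2.49 with 85 nt. The medians of 3 of these lists moved with single libraries: trehalose and glycogen stood at -0.21 without untranslated replicate 1 and -0.14 without untranslated replicate 2, and cleavage and polyadenylation at -0.16 and -0.52 without the same libraries. TFIID and SAGA stood at -0.15 without 80S replicate 2 and -0.47 without untranslated replicate 2. Rescaling lowered the medians with that of the whole pool, to -0.40 for TFIID and SAGA and -0.43 for nuclear transport, and cleavage and polyadenylation had -0.69 with the shortest leaders.

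The other lists are given by their counts, higher before lower, with some of their RNAs. Lists of the cell's structure were actin, polarity and septins with 26 higher and 13 lower of 60, microtubules, motors and spindle pole body with 25 and 17 of 55, cohesin and condensin with 12 and 10 of 27, the anaphase-promoting complex and spindle checkpoint with 7 and 6 of 31, and meiosis and sporulation with 11 and 7 of 26. In actin biology, CAP1 (16 nt), a capping protein, stood at 2.20 and PFY1 (28 nt), profilin, at -2.58. The other CAP1 RNA (41 nt) had no call, and another PFY1 RNA was higher at 1.73. ARP1 (104 nt), of dynactin, was at -3.33, but its other 2 RNAs were higher at 0.63 and 1.80. SMC3 (84 nt), of cohesin, was at -2.46, with its other RNA (33 nt) also lower. CDC23 (68 nt), of the anaphase-promoting complex, was at 2.19. Lists of DNA and chromatin were DNA replication with 28 higher and 23 lower of 82, DNA repair and damage checkpoint with 33 and 30 of 80, chromatin remodelling complexes with 18 and 14 of 49, and histone modification and silencing with 18 and 22 of 63. MCM3 (51 nt), of the replicative helicase, had -3.31, while 2 of the 4 MCM3 RNAs were higher. RFA2 (39 nt), of the single-strand binding complex, had 2.60. RAD2 (40 nt), a nuclease of excision repair, had 2.81.

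Among lists of RNA synthesis and processing, RNA polymerase subunits had 21 higher and 14 lower of 49 and tRNA modification and processing 36 and 23 of 84. Among lists of protein modification and import, ubiquitin conjugation and SCF had 22 and 16 of 60 and mitochondrial protein import 23 and 20 of 64. RPA12 (47 nt), of RNA polymerase I, stood at 2.60 and RPB9 (25 nt) at -3.95. RPA135, the second largest subunit of RNA polymerase I, had 2.41 with 33 nt and -3.65 with 57 nt. In the membrane and lipid lists, COPI coat and Golgi tethers had 28 and 24 of 80, GPI anchor synthesis 15 and 14 of 44, fatty acid synthesis and activation 13 and 6 of 27, sphingolipid synthesis 16 and 11 of 34, phospholipid synthesis 13 and 14 of 41, and peroxisome biogenesis 11 and 6 of 35. MCD4 (42 nt), an enzyme of GPI anchor synthesis, had 3.05 and GPI19 (45 nt) -3.23. The other MCD4 RNA (57 nt) was lower at -1.43, and 1 of the 3 GPI19 RNAs had no call. In the nutrient lists, metal ion and cation transport had 12 and 5 of 32, phosphate and polyphosphate 11 and 13 of 37, and thiamine and vitamin B6 3 and 6 of 19. The mating pheromone response had 15 and 13 of 40. The manganese importer SMF1 (40 nt) stood at 2.96, the copper pump CCC2 (109 nt) at -3.52, and the alpha subunit of the pheromone G protein, GPA1 (86 nt), at 2.59.

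**Figure D3:**
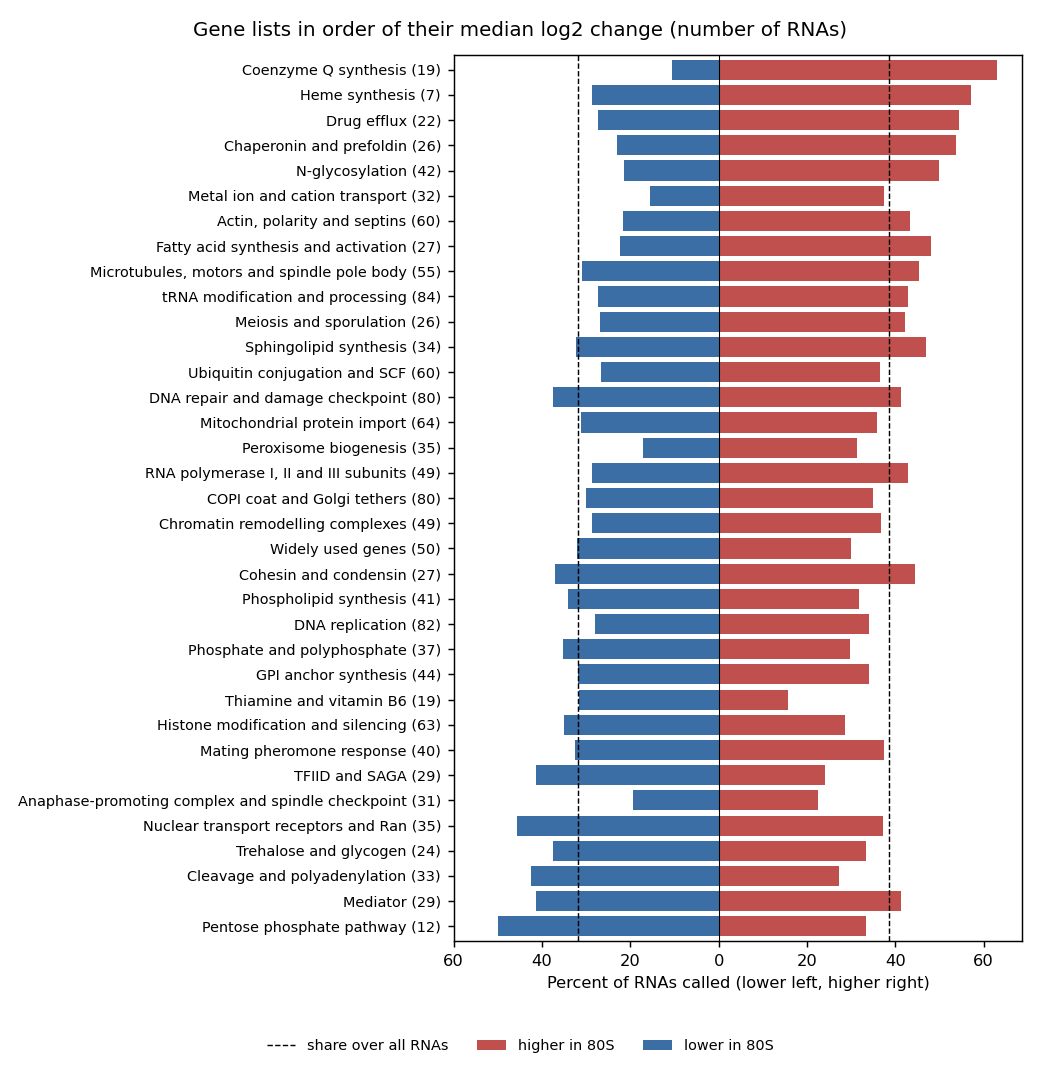
Percent of each list's RNAs called higher in 80S (right) and lower (left), with the number of RNAs in brackets and lists in order of their median log2 change. Dashed lines mark 38.6% and 31.8% over all RNAs; coenzyme Q synthesis at the top has 63.2% higher and the pentose phosphate pathway at the bottom 6 of 12 lower.

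Of 53 genes that are much used in yeast work, 34 had an RNA in the table, 50 RNAs in all, of which 15 were higher, 16 lower and 19 not called. Genes of glycolysis and ethanol fermentation differed: PDC1 (30 nt), pyruvate decarboxylase, had 7233, 7673 and 7486 FPKM in the 80S libraries, against 1725 and 2350.2 FPKM in the untranslated libraries, and FBA1 (24 nt), aldolase, stood at 1.07. ENO1 (37 nt) was lower at -0.65, and TPI1 (30 nt), ADH1 (38 nt), ENO2 (30 nt) and CDC19 (27 nt) had no call, at 0.09, 0.10, 0.02 and -0.84. The ACT1 RNA with a 100 nt leader had 3889.9, 3507 and 4060.0 FPKM in 80S and 1375 and 1408 FPKM in untranslated. Genes used as selection markers went both ways: LYS2 was higher with 33 and 44 nt, at 1.91 and 1.55, but not called with 101 nt at 0.11. LEU2 (28 nt) had 1399.8, 1499.9 and 1141 FPKM in the 80S libraries, against 9161 and 14222 FPKM in the untranslated libraries, 8.53-fold lower. URA3 (33 nt) and MET17 (41 nt) were lower at -0.97 and -1.95, and HIS3 (23 nt) and both ADE2 RNAs had no call. Of the pheromone genes, MFA1 (28 nt) was higher at 1.26 and MFA2 (44 nt) lower at -1.77. Heat shock genes were SSA1 (62 nt) at 1.42 and HSF1 at 0.77 (26 nt) and 0.84 (84 nt), all higher, and HSP26 (74 nt), lower at -1.36. HSP12 was lower with 38 nt at -0.75 and not called with 59 nt at -0.16, nor was HSP104 (56 nt) at 0.50. The call of HSP12 (38 nt) was lost without 80S replicate 2 (-0.65), 80S replicate 3 (-0.72) or untranslated replicate 2 (-0.35). The 4 RNAs of RAS2, a small GTPase of nutrient signalling, stood at 1.55 at 14 nt and 1.75 at 44 nt, and at 0.29 at 68 nt and -0.78 at 82 nt, the last 2 without a call. Among these genes the smaller calls rested on single libraries: ENO1 lost its call in 4 of the 5 fits without 1 library, at -0.71 to -0.55, and was called without untranslated replicate 1. Calls were gained by HIS3 (-0.97), CDC19 (-1.48) and HSP104 with 56 nt (0.80) without untranslated replicate 2, by ADE2 with 39 nt without that library (0.97) or 80S replicate 2 (1.03), and by RAS2 with 82 nt without 80S replicate 1 (-1.17).

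Leaders were next described by their base composition, in classes formed after the values had been seen and therefore without a test. A leader sequence followed by an ATG start codon was available for 6855 RNAs. Cytosine content ran with the fraction. In the 1372 leaders with the lowest cytosine share, up to 11.96%, 60.9% stood higher in 80S and 12.7% lower, with a median of 0.98. In the 1369 leaders with the highest share, 22.3% or more, 14.02% were higher and 56.2% lower, with a median of -0.86. The 3 classes between had medians of 0.59, 0.27 and -0.23. Across RNAs, which share libraries and are not independent, Spearman's rho of the change with the cytosine share was -0.42, and between -0.39 and -0.42 in the 6 pairings of single libraries. It was 0.19 for the adenine share, 0.12 for guanine, 0.01 for thymine (uracil in the RNA), -0.04 for leader length and 0.02 for the predicted folding energy of the leader.

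The triplet whose presence in a leader went with the lowest changes, of all 64 triplets, was CCC. It was searched on the RNA strand, and 1076 of the 6855 leaders (15.7%) held it. Of these, 709 (65.9%) were lower in 80S and 132 (12.3%) higher, with a median of -1.22. Of the 5779 leaders without it, 1464 (25.3%) were lower and 2526 (43.7%) higher, with a median of 0.38. Median FPKM of the RNAs with the run was 1190, 1113 and 1228 in the 80S libraries and 2917 and 2704 in the untranslated libraries, and 3241 in the input. Without the run it was 2549, 2439 and 2453 in 80S, 1995 and 1958 in untranslated, and 3095 in the input. The next triplets were TCC and CCT, which overlap with CCC, with medians -1.10 and -0.95 relative to leaders without them, against -1.60 for CCC. Leaders whose longest guanine run was 3 bases had a median of 0.21. Leaders with an ATG of their own (970 RNAs) had 41.9% higher and 29.2% lower, and a median of 0.33.

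The difference was seen within classes of cytosine share and of length. Among leaders in the class of the highest cytosine share, the 488 with CCC had a median of -1.52 and the 881 without it -0.50. In the second lowest class the medians were -0.55 (99 leaders) and 0.65 (1343). The lowest class had only 22 leaders with the run, whose median of 0.61 was below the 0.98 of the others, with 10 of the 22 higher in 80S. By length, medians with and without the run were -2.07 and 0.32 at 13 to 25 nt, -1.26 and 0.41 at 41 to 60 nt, and -1.04 and 0.45 at 81 to 115 nt. Taking the shortest leader of each gene alone, 366 of 515 leaders with the run were lower (71.1%), against 914 of 3541 without it (25.8%).

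The share of lower RNAs also differed with the place of the run. For leaders with a single CCC, the distance is the number of bases between the 5′ end and the run. At 0 to 9 bases, 113 of 132 RNAs (85.6%) were lower in 80S and 4 higher, with a median of -1.85. At 10 to 19 bases, 148 of 178 (83.1%) were lower and 2 higher (median -1.94), and at 20 to 39 bases 162 of 260 (62.3%) were lower and 40 higher (median -1.03). At 40 to 107 bases, 78 of 223 (35.0%) were lower and 68 (30.5%) higher, with a median of -0.13. Over the whole pool 31.8% were lower and 38.6% higher. Among leaders without CCC, 25.3% were lower and 43.7% higher, with a median of 0.38. Within leaders of 60 nt or more the medians at 0 to 9, 10 to 19, 20 to 29, 30 to 39, 40 to 59 and 60 to 107 bases were -1.82, -1.96, -1.38, -0.79, -0.38 and 0.07. Sorted by the distance to the start codon, the medians were -0.87 at 0 to 9 bases and -1.47 at 40 to 107 bases. Counting leaders with any number of runs, the first run lay within 20 bases of the 5′ end in 425 RNAs, of which 363 (85.4%) were lower and 6 higher.

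**Figure D4:**
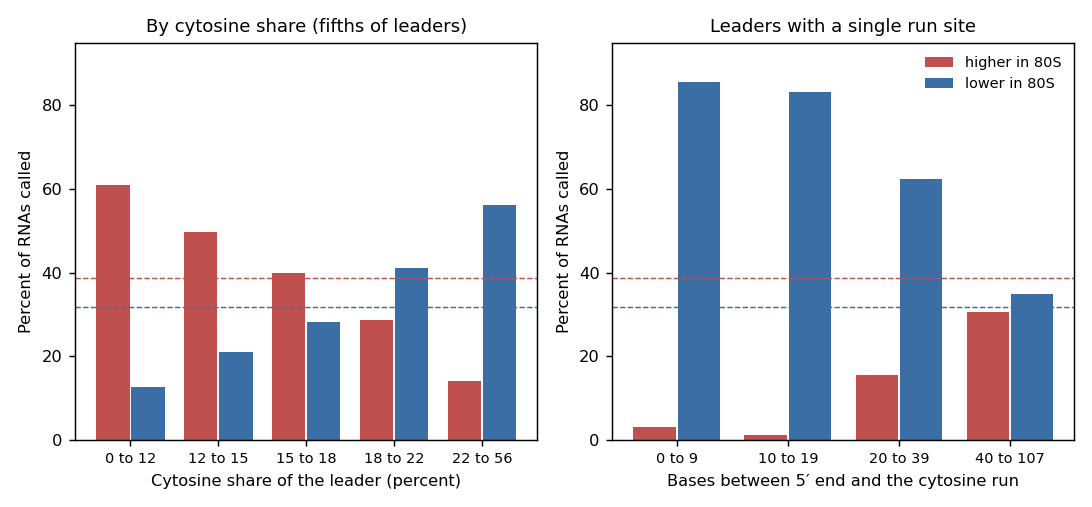
Percent of RNAs called higher and lower in 80S, by the cytosine share of the leader in 5 classes (left) and, for leaders with a single run of cytosines, by the number of bases between the 5′ end and the run (right). Dashed lines mark 38.6% higher and 31.8% lower over all RNAs; the share of lower RNAs is 85.6% for runs 0 to 9 bases from the end and 35.0% for runs at 40 to 107 bases.

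Of the 12 RNAs ranked 9 to 20 from the bottom, 9 carried CCC, and the first run lay between 6 and 35 bases from the 5′ end. Of these, 6 are shown with up to 12 bases on each side and the first run in capitals. For RPB9, TCM62, POA1 and YDL241W the first base shown is the first base of the leader.
RPB9, 25 nt leader, chrVII:374829-374852, minus strand: aagttaaactCCCCttaaaactgc
TCM62, 54 nt leader, chrII:326091-326113, minus strand: gttattttctCCCacactactgt
POA1, 83 nt leader, chrII:283655-283677, plus strand: gaacttgaagCCCagatttctac
YDL241W, 39 nt leader, chrIV:20596-20614, plus strand: atcacaCCCaagaaaaatc
CMP2, 65 nt leader, chrXIII:160120-160144, plus strand: gagatattccttCCCtcccatagag
PRY3, 73 nt leader, chrX:294015-294040, minus strand: ataattgctgcaCCCCtgcaactcca
HCR1, ARO7 and SNU71 were as low without CCC, at -3.91, -3.68 and -3.77. Of the 10 genes with 2 RNAs at the low end, PRS4 and HMS2 had no CCC in either leader, and CDS1 and SPC3 had it in the longer leader only. None of the 20 RNAs of the 10 genes at the high end had it. Over all genes with 2 or more RNAs, the shortest leader held CCC in 7 of 319 genes (2.19%) with all RNAs higher and in 93 of 229 (40.6%) with all RNAs lower, counting genes with a sequence. Exceptions in the other direction were few among the named RNAs: ACT1 (100 nt), VPS16 (80 nt), RAS1 (74 nt) and CDC28 (78 nt) were called higher in 80S with a run, which lay 71, 56, 58 and 49 bases from the 5′ end. The call of RAS1 (74 nt) was lost without 80S replicate 3 (0.79), and that of CDC28 without any single library except untranslated replicate 2, at 0.43 to 0.65.

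Leaders of the same gene differ at the 5′ end and share the bases next to the start codon, so they show the run with and without its upstream bases. In 201 genes only the longest leader held CCC: its change was below that of the shortest in 158 (78.6%), by a median of -1.49. In 1565 genes where neither held it the median difference, longest minus shortest, was 0.06, and the longest leader was lower in 48.6%. A run that both leaders share lies farther from the 5′ end in the longest one. In the 216 genes where both held CCC the median difference was 0.72, with the longest leader lower in 31.9%. The longest leader can also add a run of its own upstream, and these genes were not divided by that. The longest leader was called lower and the shortest higher in 49 of the 201 genes, and the opposite in 3. Where neither leader held CCC, these counts were 115 and 138 of the 1565 genes.

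SIR2, the histone deacetylase of silencing, SUP35 and PHO13 show such a series, and the run is given in capitals for the shortest leader that holds it and for a longer one.
SIR2, 35 nt leader, chrIV:378457-378480, minus strand: aaaccatttttCCCtcatcggcac
SIR2, 56 nt leader, chrIV:378457-378481, minus strand: caaaccatttttCCCtcatcggcac
SUP35, 18 nt leader, chrIV:808306-808323, plus strand: atctgCCCactagcaaca
SUP35, 60 nt leader, chrIV:808299-808323, plus strand: catctatatctgCCCactagcaaca
PHO13, 37 nt leader, chrIV:32259-32279, plus strand: atagcttgCCCtgacaaagaa
PHO13, 67 nt leader, chrIV:32255-32279, plus strand: ccttatagcttgCCCtgacaaagaa
The 35 nt leader of SIR2, whose run starts 11 bases from the 5′ end, had 455, 446 and 435 FPKM in the 80S libraries, against 3425 and 4623 FPKM in the untranslated libraries. The 56 nt leader, with the same run at 32 bases, had 1290.2, 1110.0 and 1073 FPKM in 80S and 2251 and 2143 FPKM in untranslated. With the run at 59 bases, the 83 nt leader had 1003, 904 and 1053 FPKM in 80S and 799 and 708 FPKM in untranslated, where all 80S libraries lay slightly above the untranslated ones without a limma call. Their changes were -3.16 (SE 0.21, limma, adjusted p = 1.38e-05), -0.93 and 0.39. The 13 nt leader, which is too short to reach the run, was also lower at -1.69. SUP35, a translation termination factor, had -1.62, -0.85 and 0.45 with its run 5, 31 and 47 bases from the 5′ end, and the last had no call. The call at 44 nt was lost without 80S replicate 1 (-0.76) or untranslated replicate 2 (-0.60), and the 60 nt leader gained a call without untranslated replicate 2 (0.72). PHO13 had -3.20, -3.06 and -1.57 with its run at 8, 22 and 38 bases, and -1.41 with the 15 nt leader that lacks it.

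Of the other named genes in which several leaders share a run, SNM1 had -3.49 with the run at 11 bases and -2.62 at 30, PRY3 -3.73 at 26 and -2.94 at 41, and ADE57 -1.34, -1.25 and -0.62 at 5, 21 and 52. The 102 nt leader of ADE57 adds an upstream run at 18 bases and stood at -2.12. The opposite order was seen in ISU1, with -2.52 at 8 bases and -3.82 at 35, in MTR2, with -2.84 at 3 and -3.28 at 35, and in UBI4, the polyubiquitin gene, with 0.27 at 68 and -1.36 at 82. RAS1 had 0.93 at 58 and 0.46 at 73, the second without a call. That 89 nt leader gained one without untranslated replicate 1 (0.65). AAT1 and PAM18 had no call on any leader, with runs from 14 to 85 bases from the 5′ end. Longer leaders also add other bases, so the position of the run, the length and the added sequence cannot be told apart within 1 gene.

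**Figure D5:**
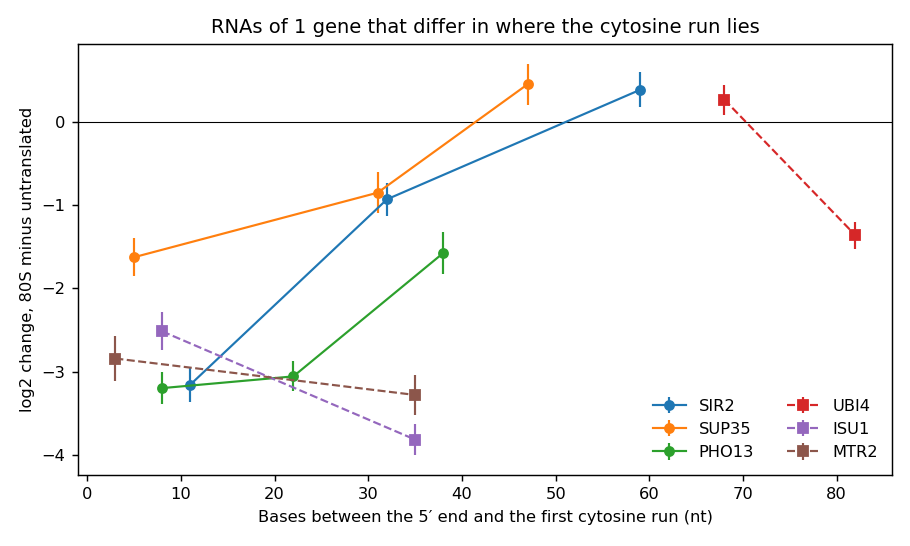
Log2 change (80S minus untranslated) of RNAs of 6 genes against the number of bases between the 5′ end and the first run of cytosines, as points with bars of 1 standard error from limma. Circles with solid lines (SIR2, SUP35, PHO13) are higher where the run lies farther in, for example -3.16 at 11 bases and 0.39 at 59 bases in SIR2; squares with dashed lines (UBI4, ISU1, MTR2) are lower.

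The comparison has limits that touch all values. Depth is unknown, because the table gives FPKM and no counts, and how reads shared by leaders of 1 gene were assigned is not given in the sources used here, so RNAs of 1 gene may not be measured independently. FPKM is a share of a library, and an RNA can stand higher in 80S where others stand lower.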

How the data were processed

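One deposited table held FPKM values for 6962 RNAs in 6 libraries (80S 3, untranslated 2, input 1). Per the submitters' processing notes, cutadapt and STAR were used. The program that made the FPKM values, the genome build and the treatment of reads shared between leaders were not given in the sources used here, and depth is unknown. The labels describe capped T7 transcripts incubated in yeast translation extract, separated on a sucrose gradient, extracted with phenol and chloroform, pulled down by biotin (for the fractions) and sequenced after ligation of a 5′ linker.

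From the deposited FPKM values, log2(FPKM + 1) was fitted with limma 3.58.1 (R 4.3.3) as group means over all 6 libraries, with a mean-variance trend, 3 residual and 5.15 prior degrees of freedom. The contrast was 80S minus untranslated, with Benjamini-Hochberg adjustment over 6962 RNAs and a threshold of 0.05. For a single value, an exact permutation test of 3 against 2 cannot go below 0.1. The fit was also run on simulated data with independent noise and far fewer changed RNAs than were called here. That run cannot show how the fit performs on these libraries. Leader sequences were read from RefSeq R64 by locus tag and leader length (6860 matched, 6855 followed by ATG), and folding energy was computed with ViennaRNA 2.7.2. Named RNAs were those at fixed ranks, at ranks 9 to 20, the 6 most abundant called in each direction, genes with agreeing RNAs, the highest and lowest RNA of each list, and genes much used in yeast work. The comparison takes every RNA of the table, but it, the gene lists and the rules for named RNAs were chosen with earlier results of these data known. Alternatives changed the pseudocount, filter, scaling, trend, input, replicate block and each library. Those for leaders with CCC, and the shortest leader of each gene alone, were added after seeing the data. Some named RNAs are not reported here.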

Additional observations from a re-analysis of the deposited data

How the results depend on the processing

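Counts of RNAs kept within 1.5 times of the values given above in every alternative run, and no named RNA was called in the opposite direction. Leaving out each library in turn gave 2355 to 2752 RNAs higher in 80S and 1996 to 2301 lower, and 251 to 334 genes with all RNAs higher and 192 to 245 with all lower. Rescaling by median ratios gave 2427 higher and 2432 lower, so the share of higher RNAs among calls was 49.9%, against 54.8% as deposited, and quantile normalization gave 2595 and 2301. Of leaders with CCC, between 675 and 745 were lower when libraries were left out, and 750 after rescaling, against 709. The replicate numbers 1 and 2 occur in both fractions. The deviations of same-numbered libraries correlated at 0.086 for number 1 and 0.530 for number 2. Those of 80S replicate 3 and untranslated replicate 1 correlated at 0.551. With 2 untranslated libraries the deviations of 1 mirror those of the other, so these values cannot decide whether the numbers mark pairs. With the replicate block, which leaves 1 residual degree of freedom, 2767 RNAs were higher and 2256 lower. Under this block ENO1 (37 nt, -0.66) and CDC28 (78 nt, 0.50) lost their calls and CDC19 (27 nt, -0.98) gained one, with no other named call changed. Over all named RNAs and alternatives, 43 values lost their call and 17 gained one. Among them, CDC28 (78 nt) lost its call under rescaling and quantile normalization, and HIS3 (23 nt) and CDC19 (27 nt) gained one under rescaling. Without counts, the error of low FPKM values cannot be separated from counting error.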
